A study of Mus musculus with 6 samples.

Results

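The genes of glucose breakdown and of the response to low oxygen were followed through differentiation in a pair of mouse embryonic stem cell lines that differ in their form of the DNA methyltransferase DNMT1. The set was a list of 38 named genes, 24 of glycolysis and 14 of the hypoxia response, chosen by name with earlier results of these data known. Of these, 34 were measured, 21 of the glycolysis group and 13 of the hypoxia group, out of 13277 genes measured in all. Gapdh and Bnip3l had only probe sets that other genes or pseudogenes share, and no probe set was named here for Gpi1 and Eno1, so these 4 genes were not analysed. The deletion line is a Dnmt1/3a/3b triple knockout stem cell line that expresses DNMT1 without its N-terminal 602 amino acids, and the full-length line is the same kind of triple knockout expressing the complete protein. Each line was sampled once at days 0, 4 and 7, on 6 arrays in total. Day 0 cells were grown with leukaemia inhibitory factor (LIF) in 10% FBS. The day 4 samples had been embryoid bodies for 1 day and attached cultures for 3 days, both without LIF. The day 7 samples had been kept for 3 more days in medium with 10% KSR and 10 ng/ml Activin A, so that time, medium and Activin A go together between days 4 and 7. The 3 deleted genes encode DNA methyltransferases, each line carries its introduced DNMT1 according to its labels, and line and DNMT1 form cannot be told apart. The source label of the deletion line at day 0 names differentiated cells, whereas its title gives day 0, and the title was followed.

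Glycolysis takes glucose into the cell through transporters, converts it stepwise to pyruvate and, in fast-dividing stem cells, sends much of that pyruvate on to lactate, which leaves by its own transporters. Hypoxia-inducible factor 1 (HIF1), whose oxygen-regulated subunit is Hif1a, binds a short DNA core in the promoters of many of these genes and raises their transcription when oxygen is low. With oxygen present, prolyl hydroxylases such as Egln1 and Egln3 mark the HIF1 subunit for destruction, and both hydroxylase genes are themselves known HIF1 targets.

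Levels below are log2 MAS5 signals, where 1 unit is a doubling, and they were held at a floor of 5.37. Where 3 levels of a line stand together, they are those of days 0, 4 and 7 in order. Differences are deletion line minus full-length line, or later day minus earlier day. With 1 array per line and day, a difference between 2 arrays has no test. A gene was counted as past the fold threshold where 2 arrays were at least 2-fold apart and the brighter array was at least 2 times the floor signal. The SD of the line difference over all measured genes was 0.51 at day 0, 0.50 at day 4 and 0.69 at day 7, so the day 7 arrays lay further apart over the measured genes as a whole. Between 12571 and 12812 of the measured genes were at or above the floor on each array. Dnmt1, the targeted gene with an introduced copy, was between 8.37 and 8.97 in the deletion line and between 8.77 and 9.65 in the full-length line. Dnmt3b was between 8.21 and 9.04 in the deletion line and between 8.23 and 9.71 in the full-length line, and Dnmt3a was not measured. Whether the probes fall inside the removed sequence was not analysed here, so the levels do not check the labels. All 9 pluripotent stem cell markers were above the floor on all 6 arrays, with a summed log2 level between 16.61 and 16.80 in the deletion line and between 16.42 and 17.15 in the full-length line.

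At day 7 the members were mostly lower in the deletion line. Of 34 members, 14 were at least 2-fold lower and none was at least 2-fold higher, against 8.92% and 3.95% of all measured genes, and 28 members were below 0. The median difference of the members was -0.79, while that of all measured genes was -0.05. In the glycolysis group 9 of 21 genes were past the threshold, with a median of -0.85, and in the hypoxia group 5 of 13 were, with a median of -0.72. The array of the deletion line at day 7 held the lowest of the 6 levels for 19 of the 34 members, 11 of the glycolysis group and 8 of the hypoxia group, against 17.5% of all measured genes. Centring each array on its median instead left 9 members at least 2-fold lower, 6 of glycolysis and 3 of hypoxia, with 937 of all genes lower and 652 higher in place of 1184 lower and 524 higher. The same comparison at the earlier days gave smaller values. At day 0 the median was -0.15, against -0.05 for all genes. In the glycolysis group it was -0.27, with 14 of 21 genes below 0, against 7222 of 13277 of all genes. In the hypoxia group it was -0.02. Only Ldhb was past the threshold, lower in the deletion line on its brightest probe set, against 2.82% of all genes lower and 3.15% higher. At day 4 the median was -0.02 and 0 members were past it, against 3.54% lower and 2.43% higher.

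**Figure D1:**
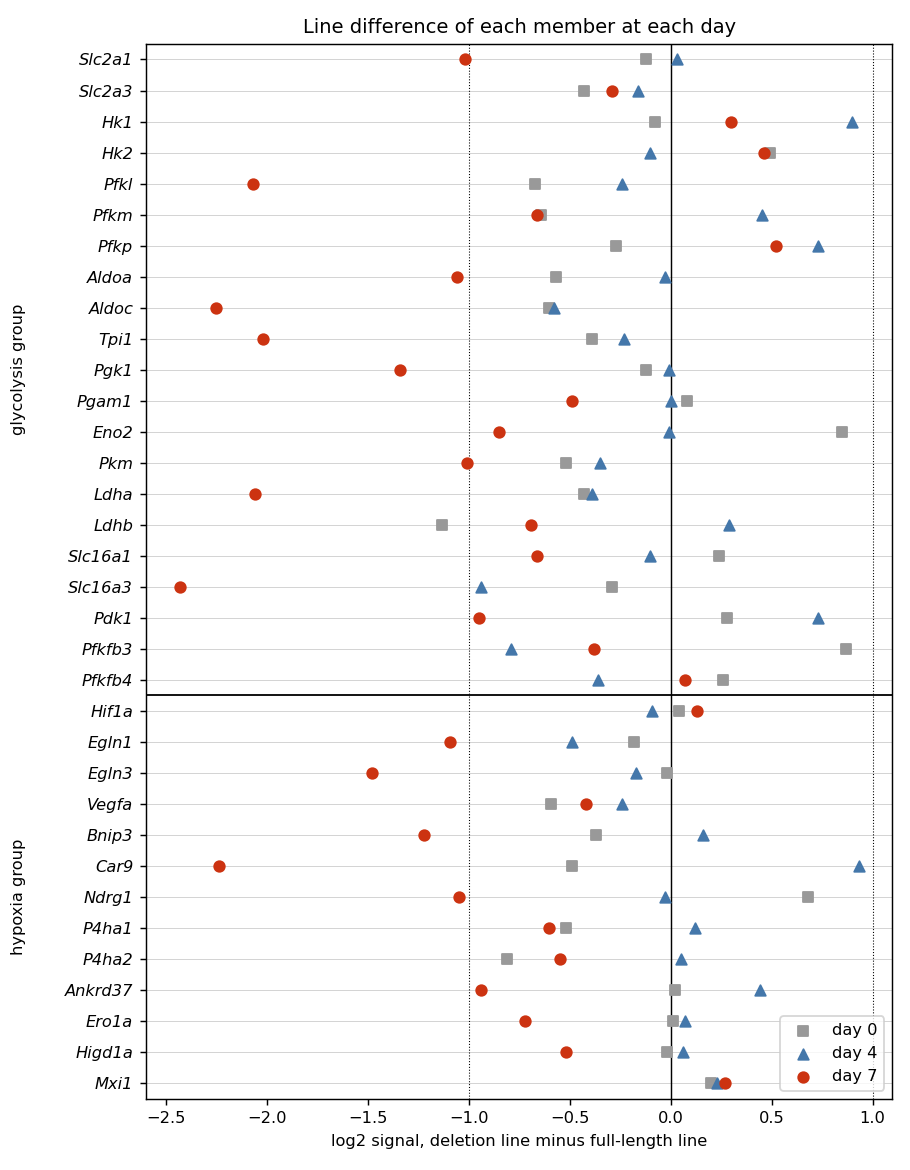
Line difference of each of the 34 members in log2 signal, deletion line minus full-length line, with 1 symbol per day and dotted lines at a 2-fold difference. The day 7 circles lie left of 0 for 28 members and at or left of the lower dotted line for 14, while the day 0 and day 4 symbols lie between the dotted lines for all members but Ldhb at day 0.

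The core that HIF1 binds was searched for in the RefSeq promoter windows of the members (build GRCm38.p6, 250 bases before to 50 bases after each start), as ACGTG or GCGTG on either strand. Of 34 members 32 had a window, and 30 of them (93.8%) held a match. Among the members past the threshold at day 7 a match was found in 12 of 13, and among the others in 18 of 19. A match was also held by 66.2% of the measured genes with a window and by 46.7% of all genes with a window. With ACGTG alone the shares were 84.6% of the lower members, 73.7% of the other members, 78.1% of all members, 28.9% of the measured genes and 21.8% of all genes. A match is a run of letters and not a measured binding site, and the palindrome CACGTG counts on both strands. The 6 stretches shown first belong to members that were lower in the deletion line at day 7, and the last 2, of Hk2 and Hif1a, belong to members that were not, with every match in capitals and each stretch read 5′ to 3′ on the strand of its gene.
Slc16a3: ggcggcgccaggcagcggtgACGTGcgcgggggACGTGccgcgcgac
Car9: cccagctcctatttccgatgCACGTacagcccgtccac
Ldha: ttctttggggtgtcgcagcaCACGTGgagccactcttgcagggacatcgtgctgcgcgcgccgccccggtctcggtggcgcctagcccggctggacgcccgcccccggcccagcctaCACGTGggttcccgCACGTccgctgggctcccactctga
Egln3: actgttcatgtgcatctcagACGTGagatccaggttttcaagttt
Pgk1: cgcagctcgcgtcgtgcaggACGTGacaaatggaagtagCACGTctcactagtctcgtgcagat
Bnip3: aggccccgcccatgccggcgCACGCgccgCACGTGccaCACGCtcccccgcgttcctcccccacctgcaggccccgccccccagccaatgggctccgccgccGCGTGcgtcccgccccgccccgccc
Hk2: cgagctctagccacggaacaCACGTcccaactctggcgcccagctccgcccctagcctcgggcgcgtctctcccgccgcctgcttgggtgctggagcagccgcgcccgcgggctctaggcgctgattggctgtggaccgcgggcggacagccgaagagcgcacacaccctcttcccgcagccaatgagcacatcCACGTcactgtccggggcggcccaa
Hif1a: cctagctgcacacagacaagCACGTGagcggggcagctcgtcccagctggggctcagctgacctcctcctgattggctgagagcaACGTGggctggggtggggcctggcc
In build GRCm38.p6 these lie at chr11:120949020-120949066 on the plus strand for Slc16a3, chr4:43506988-43507025 on the plus strand for Car9, and chr7:46845639-46845794 on the plus strand for Ldha. The stretch of Egln3 is chr12:54204079-54204123 on the minus strand, that of Pgk1 is chrX:106186930-106186993 on the plus strand, and that of Bnip3 is chr7:138909517-138909643 on the minus strand. The stretch of Hk2 is chr6:82774482-82774700 on the minus strand and that of Hif1a is chr12:73907712-73907821 on the plus strand. The 8 stretches were drawn from windows with a match, and all 8 hold the ACGTG letters upstream of the start. Their choice fixed this, so they cannot show whether these letters separate lower genes from others. The window of Tpi1, a gene that was lower, held neither core.

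Of the 2 glucose transporters, Slc2a1, the widespread basal transporter, was low on 1 array. Its level was 13.83 at day 0, 14.52 at day 4 and 13.11 at day 7 in the deletion line, against 13.95, 14.49 and 14.13 in the full-length line on the same days. On this brightest probe set the day 7 difference was -1.02 (2.03-fold lower), and the other 5 arrays lay within 0.69 of each other. On its other 2 probe sets Slc2a1 was already lower in the deletion line at day 0, at 13.36 against 13.83 and 13.13 against 13.57. Slc2a3, the high-affinity transporter, was 14.07, 14.52 and 14.29 in the deletion line and 14.50, 14.68 and 14.58 in the full-length line, so it differed by -0.29 at day 7. Its 4 probe sets did not share a sign at day 7 and ran between -0.33 and 0.34.

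Of the 12 measured enzymes that carry glucose to pyruvate, 6 were at least 2-fold lower in the deletion line at day 7. Among the hexokinases, which trap glucose by phosphorylating it, Hk1 was 10.20 against 9.90 at day 7, deletion line against full-length line, and Hk2 was 11.59 against 11.13, both slightly higher in the deletion line. Of the 3 phosphofructokinase genes, which encode the committed step of the pathway, Pfkl was 11.80, 12.21 and 9.73 in the deletion line, against 12.47, 12.45 and 11.80 in the full-length line. The level of Pfkl on the deletion line's day 7 array was below all other arrays, 4.20-fold lower than in the full-length line (-2.07). Pfkp, the platelet-type isoform, was instead 12.28 in the deletion line and 11.76 in the full-length line (0.52) on that day, and Pfkm, the muscle-type isoform, was 9.58 against 10.24 (-0.66).

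Further down the pathway the day 7 array of the deletion line held the lowest level of every gene but Eno2. Aldoa, the main aldolase, was 14.18, 14.47 and 13.61 in the deletion line, against 14.75, 14.50 and 14.67 in the full-length line, a day 7 difference of -1.06. Its relative Aldoc was 10.10, 10.00 and 9.09 in the deletion line, against 10.70, 10.58 and 11.34 in the full-length line. The day 7 difference of Aldoc was -2.25 (4.76-fold lower), and 0.806% of all measured genes had a lower one. With its probe sets averaged the difference of Aldoc was -0.87, short of 2-fold, the second of its probe sets having a mean signal below the floor. Aldoc also differed by -0.60 at day 0 and -0.58 at day 4, so the levels of the lines did not overlap. Tpi1, triose phosphate isomerase, was 13.40, 13.92 and 11.89 in the deletion line, against 13.79, 14.15 and 13.91 in the full-length line. That made Tpi1 4.06-fold lower at day 7 (-2.02), with its 5 other arrays between 13.40 and 14.15. Pgk1, the first enzyme of the pathway to yield ATP, was 14.41, 14.65 and 13.37 in the deletion line, against 14.53, 14.66 and 14.71 in the full-length line. On this brightest probe set the lines of Pgk1 were within 0.12 of each other on the 2 earlier days and 2.53-fold apart at day 7 (-1.34). On its other 2 probe sets Pgk1 was already lower in the deletion line at day 0, at 14.16 against 14.82 and 13.81 against 14.59. Pkm, pyruvate kinase, was 13.73, 13.88 and 12.80 in the deletion line, against 14.25, 14.23 and 13.81 in the full-length line, a day 7 difference of -1.01. Pgam1, phosphoglycerate mutase, differed by -0.49 at day 7, and Eno2, an enolase best known from neurons, by -0.85 near the floor.

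In each pair of lactate genes, 1 gene was at least 2-fold lower in the deletion line at day 7. Ldha, the subunit that favours lactate production, was 14.17, 14.40 and 12.28 in the deletion line, against 14.60, 14.79 and 14.34 in the full-length line. The deletion line's day 7 array of Ldha was the lowest of the 6, and the day 7 difference was -2.06 (4.17-fold lower). Ldhb, the subunit typical of heart, was 12.30, 13.01 and 12.81 in the deletion line, against 13.43, 12.72 and 13.50 in the full-length line, and its arrays overlapped between the lines. Slc16a3, the lactate exporter MCT4, was 8.05, 8.85 and 6.21 in the deletion line, against 8.34, 9.79 and 8.64 in the full-length line. It was 5.39-fold lower at day 7 (-2.43), with 0.542% of all measured genes below it. Slc16a1, the transporter MCT1, was 13.01 against 13.67 at day 7 (-0.66).

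On their brightest probe sets the kinases that steer the pathway were short of the threshold between the lines. Pdk1, which blocks the entry of pyruvate into the mitochondrial cycle, was 13.07, 13.62 and 11.82 in the deletion line, against 12.79, 12.89 and 12.77 in the full-length line. Pdk1 was thus 0.28 higher at day 0 and 0.73 higher at day 4 in the deletion line, and its day 7 difference of -0.95 lay just outside the 2-fold threshold. The other 2 Pdk1 probe sets above the floor were past it, at -1.42 and -1.43, and with all its probe sets averaged Pdk1 was at -1.08. At day 0 these other 2 probe sets were lower in the deletion line, at 12.24 against 12.45 and 10.27 against 10.61. Pfkfb3 and Pfkfb4, which set the level of the phosphofructokinase activator fructose 2,6-bisphosphate, differed by -0.38 and 0.07 at day 7.

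**Figure D2:**
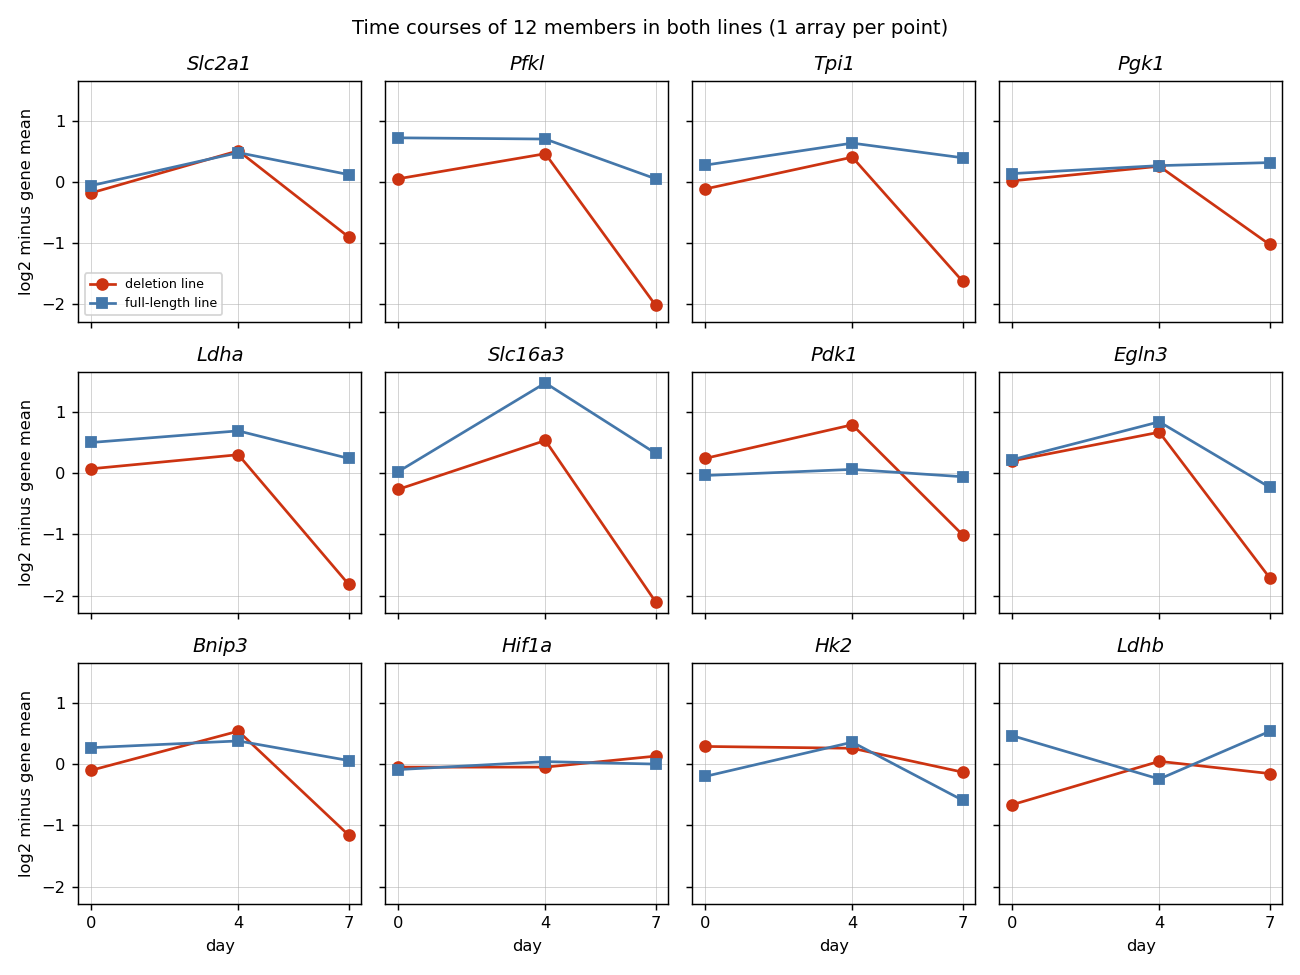
Log2 signal of 12 members over days 0, 4 and 7, each minus the gene's mean over its 6 arrays, with 1 array per point. The deletion line's day 7 point is the lowest for Slc2a1, Pfkl, Tpi1, Pgk1, Ldha, Slc16a3, Pdk1, Egln3 and Bnip3 and is not the lowest for Hif1a, Hk2 and Ldhb.

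In the hypoxia group the gene of the HIF1 subunit itself was level. Hif1a was 12.60, 12.60 and 12.78 in the deletion line, against 12.56, 12.69 and 12.65 in the full-length line; all 6 arrays lay between 12.56 and 12.78. An array measures its RNA and not the protein, on which oxygen acts. Egln3, a HIF prolyl hydroxylase, was 10.07, 10.54 and 8.16 in the deletion line, against 10.09, 10.71 and 9.64 in the full-length line. On this brightest probe set the lines of Egln3 were within 0.17 of each other on the 2 earlier days and 2.79-fold apart at day 7 (-1.48). On its other probe set Egln3 was higher in the deletion line at day 0, at 8.65 against 7.60 in the full-length line. Egln1, the main hydroxylase of most cells, was 9.28, 9.57 and 8.19 in the deletion line, against 9.46, 10.06 and 9.28 in the full-length line, and differed by -1.09 at day 7.

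Among the hypoxia-induced genes 3 of 10 were at least 2-fold lower in the deletion line at day 7. Bnip3, a mitophagy receptor, was 12.74, 13.38 and 11.68 in the deletion line, against 13.11, 13.22 and 12.90 in the full-length line. Its day 7 difference was -1.22 (2.33-fold lower), and the other 5 arrays lay between 12.74 and 13.38. Car9, a carbonic anhydrase at the cell surface, was 6.07, 6.92 and at the floor in the deletion line, against 6.56, 5.99 and 7.60 in the full-length line. Car9 was therefore at least 4.71-fold lower at day 7, on a probe set that was dim throughout. Ndrg1, a stress-induced gene, was 9.94, 10.21 and 9.50 in the deletion line, against 9.26, 10.24 and 10.55 in the full-length line, so the levels of the lines overlapped and its day 7 difference was -1.05. Ankrd37 lay just outside the threshold at -0.94. Ero1a, an oxidase of protein folding that was listed under its older symbol Ero1l, differed by -0.72. The collagen prolyl hydroxylase genes P4ha1 and P4ha2 differed by -0.60 and -0.55, Higd1a, a mitochondrial protein gene, by -0.52 and Vegfa, the blood vessel growth factor, by -0.42. The other probe set of P4ha1 was past the threshold, at -1.17. Mxi1, an antagonist of MYC, was slightly higher at 0.27.

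**Figure D3:**
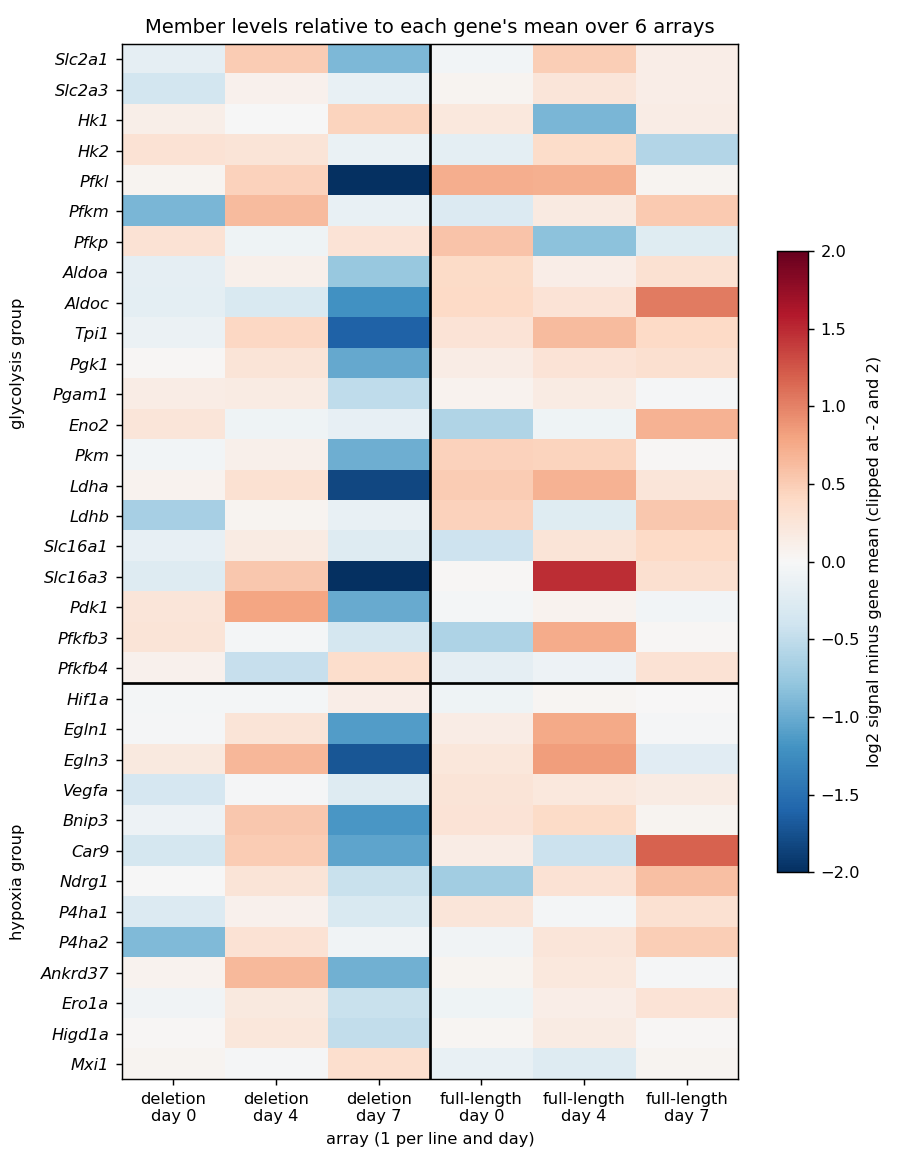
Level of each of the 34 members on each array, as log2 signal minus the gene's mean over the 6 arrays, with the 3 arrays of the deletion line to the left of the 3 of the full-length line. The column of the deletion line at day 7 is the bluest, and it holds the lowest of the 6 levels for 19 members.

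The count was also read among the genes with the strongest signals. Of the 1126 genes with a mean level of 12 or more, 23 (2.04%) were at least 2-fold lower in the deletion line at day 7, and the median difference of the 1126 was -0.02. The members held 15 of the 1126 genes and 7 of the 23, namely Ldha, Tpi1, Pgk1, Bnip3, Aldoa, Slc2a1 and Pkm. Other probe sets of the same genes were read where they existed. Of 21 members with several probe sets above the floor, 19 had the same sign on all of them at day 7, the exceptions being Slc2a3 and Higd1a. Of the 14 lower members 8 had several probe sets, and for 5 of these, Tpi1, Egln3, Egln1, Pgk1 and Slc2a1, every probe set was at least 2-fold lower. For Pfkl the probe sets ran between -2.07 and -0.05, with -1.26 on averaging, for Aldoa between -1.15 and -0.48 and for Ndrg1 between -1.14 and -0.75. Many of the probe sets of glycolytic genes are of the types that the maker marks as able to bind related transcripts, and signal shared with pseudogenes is uncertain there.

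**Figure D4:**
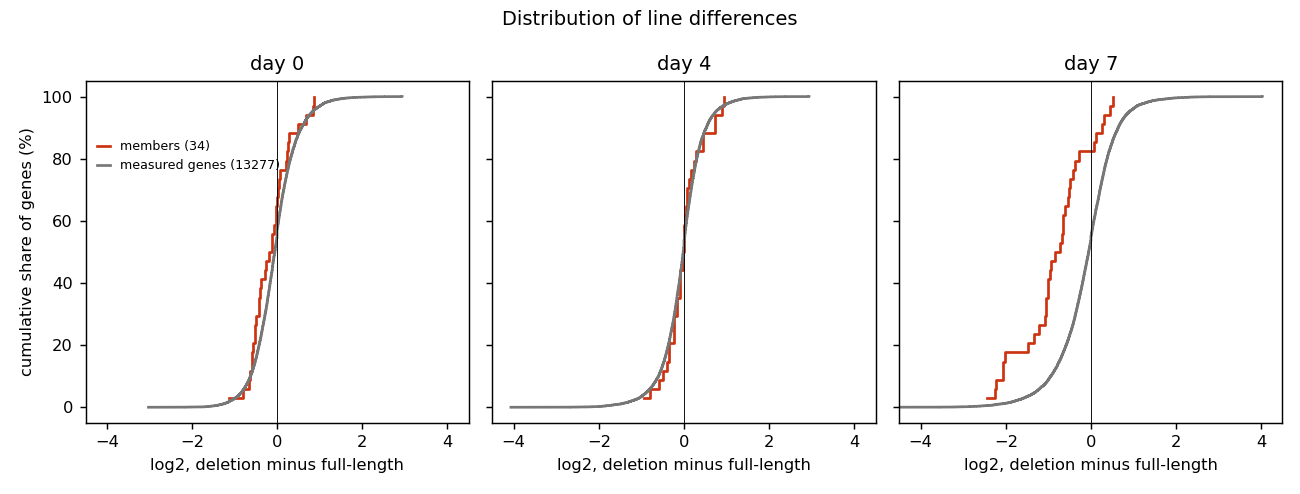
Cumulative share of genes by their line difference in log2 signal, deletion line minus full-length line, for the 34 members and all 13277 measured genes at each day. At day 7 the curve of the members lies left of that of all genes, with medians of -0.79 and -0.05, while at day 4 both medians are -0.02.

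Within the deletion line many members were lower at day 7 than at day 4. Of the 34 members 13 were at least 2-fold lower and 0 were higher, against 5.97% and 4.78% of all genes, with a median of -0.72. The 13 were Slc16a3 (-2.64), Pfkl (-2.48), Egln3 (-2.38), Ldha (-2.12), Tpi1 (-2.03), Pdk1 (-1.80), Bnip3 (-1.70), Ankrd37 (-1.60), Car9, Slc2a1 (-1.41), Egln1 (-1.38), Pgk1 (-1.28) and Pkm (-1.08). In the full-length line over the same days 2 members were lower, Slc16a3 (-1.15) and Egln3 (-1.07), and 2 were higher, Car9 (1.61) and Hk1 (1.05), against 3.14% and 5.2% of all genes, with a median of -0.05. Slc16a3 and Egln3 were thus lower at day 7 than at day 4 in both lines. Pdk1 differed by -0.12, Tpi1 by -0.24, Bnip3 by -0.32 and Ldha by -0.45 between these days in the full-length line. This comparison shares its day 7 arrays with the line difference at day 7 and is no separate evidence of it.

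Set against day 0, 11 members of the deletion line were at least 2-fold lower at day 7 and 0 were higher, against 4.72% and 6.25% of all genes. They were Pfkl (-2.07), Egln3 (-1.91), Ldha (-1.89), Slc16a3 (-1.84), Tpi1 (-1.51), Pdk1 (-1.25), Egln1 (-1.09), Bnip3 (-1.06), Pgk1 (-1.04), Ankrd37 (-1.03) and Aldoc (-1.01). In the full-length line 0 were lower and 3 were higher, Ndrg1 (1.29), Eno2 (1.29) and Car9 (1.04), against 4.27% and 9.96% of all genes. Between days 0 and 4 the members differed little. The median, day 4 minus day 0, was 0.29 in the deletion line, with 25 of 34 above 0, and 0.13 in the full-length line, with 23 of 34 above 0, while the medians of all genes were 0.06 and 0.03 in the same lines, with 7389 and 6899 of 13277 above 0. With arrays centred on their median the members' median was 0.17 in the deletion line and 0.02 in the full-length line. That centring lowers the medians of all genes too, so these values are not to be set against 0.06 and 0.03. In the deletion line Pfkm (1.54) and P4ha2 (1.18) were at least 2-fold higher at day 4 than at day 0 and 0 members were lower, against 6.26% higher and 4.07% lower of all genes. In the full-length line Slc16a3 (1.45) and Pfkfb3 (1.36) were higher and Pfkp (-1.38) and Hk1 (-1.11) were lower, against 8.14% and 5.03% of all genes.

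The additive model of line and day, fitted with limma to all 13277 genes, called 0 members at an adjusted p of 0.05 (Benjamini-Hochberg over all genes) in any of its 4 comparisons. It takes the line difference as the same on every day, so a difference on the day 7 arrays alone adds to its error. Of all genes it called 1.58% for day 4 over day 0, 0.0151% for day 7 over day 4, 1.03% for day 7 over day 0 and 0.0% for the line. For day 7 over day 4, 14 members had an unadjusted p under 0.05, 13 of them lower at day 7 (41.2% of members, against 11.9% of all genes). The lowest adjusted p was that of Egln3, at a log2 difference of -1.73 (SE 0.35, limma adjusted p = 0.155). Ldha differed by -1.29 (SE 0.37, limma adjusted p = 0.268), by -0.46 without the deletion line's day 7 array and by -2.11 without the full-length line's day 7 array. Egln3 was at -1.03 without the deletion line's day 7 array. For the line, 9 members had an unadjusted p under 0.05, all lower in the deletion line (26.5%, against 12.2% of all genes), and the lowest adjusted p was that of Pkm, at -0.63 (SE 0.16, limma adjusted p = 0.288). For day 4 over day 0, 5 members had an unadjusted p under 0.05 (14.7%, against 16.2% of all genes). Pfkp was lowest at -0.88 (SE 0.24, limma adjusted p = 0.131), with values between -1.33 without the deletion line's day 0 array and -0.43 without the full-length line's day 0 array. For day 7 over day 0, 6 members did (17.6%, against 17.3% of all genes), and Pfkl was lowest at -1.37 (SE 0.38, limma adjusted p = 0.132). It was at -0.56 without the deletion line's day 7 array and at -2.18 without the full-length line's day 7 array. Without the deletion line's day 7 array the median of the members was -0.07 for day 7 over day 4 and -0.06 for the line, against -0.30 and -0.31 with all 6 arrays, and for day 7 over day 0 it was 0.15 against -0.23. Without the full-length line's day 7 array the median for day 7 over day 4 was -0.71. The median for the line was again -0.06, which the model fixes: without either day 7 array, the line is estimated from days 0 and 4 alone.

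Other genes of these pathways were read at day 7 from lists of their own, to be set beside the 8.92% of all genes that were at least 2-fold lower and the 3.95% that were higher. Lists this short hold few genes at those shares. Of 12 measured genes of pyruvate oxidation and 6 of the pentose phosphate branch, 0 were at least 2-fold apart between the lines, with medians of 0.05 and -0.19. The 11 regulators of the hypoxia response, such as the partners of the HIF subunits, also had 0, with a median of 0.00. Of 20 other glycolysis genes 3 were lower, Pgm1 (-1.48), Bpgm (-1.15) and Pgm2, at 9.11 in the deletion line and 10.11 in the full-length line, and 2 were higher, Hkdc1 (2.08) and Pklr, which was at the floor in the full-length line, with a median of -0.31. Of 6 glycogen genes Pygl, glycogen phosphorylase of liver, was lower in the deletion line at 6.49, against 9.28 in the full-length line (-2.79). Of 30 other hypoxia-induced genes 5 were lower, Car2 (-2.15), Adm (-1.52), Fam162a (-1.36), Edn1 (-1.10) and Pgf, which was at the floor in the deletion line, and 2 were higher, with a median of -0.32. The higher ones were Lox, the collagen cross-linking oxidase, at 9.48 in the deletion line and 5.45 in the full-length line, and Kdm3a, a histone demethylase, at 12.72 in the deletion line and 11.31 in the full-length line. The model called Cited2, a HIF1-induced inhibitor of HIF1, higher at day 4 than at day 0 (1.39, SE 0.15, limma adjusted p = 0.0131) and at day 7 than at day 0 (1.30, SE 0.15, limma adjusted p = 0.0224). For day 4 over day 0 it also called Car2, a cytosolic carbonic anhydrase (2.28, SE 0.37, limma adjusted p = 0.0349), and Ddit4, an inhibitor of mTOR signalling (1.11, SE 0.19, limma adjusted p = 0.0413), and it called 0 other genes of these lists in any comparison. These 4 calls, with 14 alternative fits each, were lost in 39 of those fits. All 4 were lost where the filter on dim genes, the variance trend, the variance prior or the line factor was left out.

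Markers of other cell types differed between the lines at day 7 as well. The summed log2 level of 7 trophoblast markers was 14.10 in the deletion line and 15.36 in the full-length line, with Cdx2 and Elf5 at the floor in the deletion line. That of 6 blood markers was 8.42 in the deletion line and 10.03 in the full-length line, with Hba-x and Tal1 at the floor in the deletion line. That of 10 extraembryonic endoderm markers was 12.41 in the deletion line and 10.93 in the full-length line, and that of 11 fibroblast markers was 13.31 against 13.10, with Sox7 and Lum of these lists at the floor in the full-length line. Their part in the member differences was not tested. In arrays of mixed cultures, fewer cells of a type and less RNA per cell cannot be told apart.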

How the data were processed

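RNA of 6 mouse samples, 1 per line and day, was hybridised to Affymetrix arrays with biotin label. The deposited values are MAS5 signals on a log2 scale that the authors made, per the submitters' processing notes. No source used here gives the MAS5 version, scaling target or log base. The base was inferred: after raising 2 to each value, the mean trimmed by 2% per end fell between 496.7 and 496.9 on every array. Such scaling makes levels relative to each array's mean.

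Signals below a floor were set to it, a signal of 41.2 (log2 5.37), the median over arrays of each array's 40th percentile. This is a percentile, not a measured background. Of 45037 probe sets 34945 had 1 gene symbol in the platform annotation dated 2016, 932 had several and 9160 had none, and 34741 of the first kind were found in RefSeq. A gene took its brightest probe set and counted as measured where that probe set's mean signal reached the floor, as for 13277 of 18193 genes. The 34 measured members had 77 probe sets, and 22 members had more than 1.

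limma 3.58.1 in R 4.3.3 fitted line and day as additive factors over all measured genes, with a variance trend, two-sided moderated tests and Benjamini-Hochberg adjustment at 0.05. The fit left 2 residual degrees of freedom, to which the prior added 5.63, and was tested on simulated data. The p-values measure only the spread between these arrays. Nothing in the labels says that the samples are repeated cultures. Alternatives changed the floor, the filter, the probe set rule, the scaling, the variance model, the other factor and the arrays kept. All members could be named, with up to 4 genes of each other list, and more where they made up a count of 5 or fewer after their values were seen. Dnmt1, Dnmt3a and Dnmt3b were named outside this rule as the targeted genes. Members and lists were chosen with earlier results of these data known.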

Additional observations from a re-analysis of the deposited data

Results flagged for a closer look

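Car9 took opposite directions between days 4 and 7 in the 2 lines. In the deletion line its day 7 level was at the floor and the log2 difference, day 7 minus day 4, was -1.56 or lower, and in the full-length line it was 1.61 higher. The difference between the lines in this step was not tested, since there was 1 array per line and day. The probe set was dim on all 6 arrays, with levels of 7.60 or less.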

How the results depend on the processing

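The 6 arrays held no replicates. The model held line and day as factors, so it compared days within lines and lines within days. With 1 array per line and day, no further pairing was possible. The called number of members was 0 in all 4 comparisons under every alternative fit that kept all 6 arrays. The main fit called at most 1.58% of all genes in any comparison and 0.0% for the line. At such shares, 0 calls among 34 members says little about the members. Centring arrays on their median left 9 of 34 members at least 2-fold lower in the deletion line at day 7, against 14, and 3 of 13 hypoxia genes, against 5. The 5 members no longer counted lie within 0.10 of the threshold, and this scaling moved the median of all genes to 0.04, against -0.05. The same scaling gave a median of all genes of -0.04, against 0.06, for day 4 over day 0 in the deletion line, and of -0.07, against 0.06, for day 7 over day 0 in the full-length line. Leaving out 1 array at a time, Ldha for day 4 over day 0, at 0.21 with all arrays, ran between -0.22 and 0.64, with -0.19 without the full-length line's day 0 array and -0.22 without the deletion line's day 4 array. Slc16a3 for day 7 over day 0, at -0.77 with all arrays, ran between -1.68 and 0.14, the last without the deletion line's day 7 array. The cause was not tested. The sign of the day 7 line difference was the same for all members under the other floor, scaling and probe set settings, except Higd1a, which was 0.15 with probe sets averaged. That averaging moved Aldoc to -0.87, against -2.25, and Pfkl to -1.26, against -2.07. With probe sets averaged, Ldhb no longer counted at day 0, where 0 members were at least 2-fold lower and 1 was higher. At day 4, 1 member was then at least 2-fold lower and 0 were higher. The 4 calls of Car2, Cited2 and Ddit4, with 14 alternative fits each, were lost in 39 of those fits, with the same direction in each. The alternative without control probe sets was not run, as the table holds 0 of them, so RNA degradation was not measured. Signals near the floor limit Car9, Eno2 and Slc16a3.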
